A study of Rattus norvegicus with 192 samples.

Results

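Dbp, Per2 and Per3 are genes of the circadian clock and its output, and their transcripts were followed here in the liver, the kidney, adipose tissue and the prefrontal cortex (PFC). The genes were chosen by name among those that the study lists as changed by diet, in their case in the liver. They are 3 of the 12563 gene identifiers in the mRNA tables (Dbp ENSRNOG00000021027, Per2 ENSRNOG00000020254, Per3 ENSRNOG00000018413). All 3 were present in each of the 8 tables, one for each tissue and genotype. The study set a diet whose protein came from dried whole egg against a diet based on casein in 24 male rats, 6 in each of 4 groups: ZDF rats (fa/fa) on casein, ZDF rats on whole egg, lean rats (fa/+) on casein and lean rats on whole egg. ZDF rats carry the mutated leptin receptor on both chromosomes and become obese and diabetic, and their lean controls keep an intact copy. All rats arrived at 6 wk of age, shared cages under 12 h of light and 12 h of dark, ate their diet with 20% protein freely for 8 wk and were anaesthetised with ketamine and xylazine at the end. The hour at which each rat was killed is not given in the sources used here.

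In mammals the CLOCK and BMAL1 proteins bind E-box sequences and switch on a set of genes once a day, among them Per2 and Per3, whose products feed back on CLOCK and BMAL1. Dbp is switched on by the same pair and codes for a PAR bZIP transcription factor, which binds D-box sequences in genes of metabolism and detoxification. The transcripts of all 3 rise and fall over the day in rodent liver and kidney, and Dbp is known there for a wide swing.

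The promoters of Per2 and Dbp are shown because they differ in which of these control sequences lie close to the start site. Each window runs from 250 bases before to 50 bases after the start of the gene, 5′ to 3′ on the gene's strand, and was taken from RefSeq for build GRCr8 (Per2 on the minus strand of chr9:99496944-99497243, Dbp on the plus strand of chr1:105312006-105312305). Capitals mark matches, on either strand, to CACGTG (E-box), CACGTT (a variant called E-prime box), TTATGTAA or TTACGTAA (D-box) and TGACGTCA (cyclic AMP response element).
Per2: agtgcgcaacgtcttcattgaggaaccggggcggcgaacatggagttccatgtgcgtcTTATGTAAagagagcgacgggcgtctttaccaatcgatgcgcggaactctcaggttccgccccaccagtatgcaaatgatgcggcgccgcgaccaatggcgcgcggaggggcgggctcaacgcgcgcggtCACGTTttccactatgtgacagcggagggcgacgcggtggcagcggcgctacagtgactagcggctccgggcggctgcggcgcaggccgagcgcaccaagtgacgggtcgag
Dbp: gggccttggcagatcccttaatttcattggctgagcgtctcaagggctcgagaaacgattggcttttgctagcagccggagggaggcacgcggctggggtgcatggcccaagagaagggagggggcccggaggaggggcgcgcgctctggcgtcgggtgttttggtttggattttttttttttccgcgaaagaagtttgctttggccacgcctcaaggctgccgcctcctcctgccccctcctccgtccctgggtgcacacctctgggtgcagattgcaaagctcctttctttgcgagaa

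In Per2 the D-box match starts 192 bases and the E-prime box match 62 bases before the start site. No match to the motifs searched lies in the windows of Dbp and Per3. Among all 33469 promoter windows of the RefSeq table, 0.893% held TTATGTAA and 4.83% held CACGTT. A match is a description of the letters in the window, and the mouse Dbp gene is known to carry working E-boxes inside the gene, beyond a window of this kind.

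The libraries were made with QuantSeq, which reads transcripts from their 3′ end, and values are given below as counts per 1000000 (CPM) after TMM scaling. Only the liver table of ZDF rats holds unscaled counts (735993 to 9284567 per library). In the 7 other tables libraries had been multiplied by factors of their own and rounded (a factor other than 1 was found in 77 of 83), so that their column totals, 30819 to 8325943, are not read totals. Below 200000 were 4 libraries (PFC of ZDF rats 3 and 5, kidney of ZDF rat 5 and adipose tissue of ZDF rat 11), where the value of a member in the table is 0 to 11. Genotypes follow the headers of the tables. The strain given with the samples makes rats 1 to 12 ZDF and rats 13 to 24 lean, which differs for 12 of the 24 rats, so every result by genotype, and every diet result within a genotype, holds for the headers' grouping. The lean liver table names 11 casein rats and no whole egg rat, and a diet comparison there was not made. Apoa1 and Cyp2e1 (liver), Adipoq and Fabp4 (adipocytes) and Mbp (myelin) each had their highest median in the tissue on the label, and no kidney marker could be named. In lean adipose tissue rats 6 and 13 stood apart, with Adipoq at 130 and 42.3 CPM where the other rats had at least 2467 CPM. Medians do not show single libraries. The highest Cyp2e1 was 2304 CPM in lean adipose tissue (median 58.6) and 871 CPM in the ZDF PFC (median 13.1). The highest Apoa1 in ZDF adipose tissue was 1020 CPM (median 49.4). Where these values come from was not tested.

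In the liver of ZDF rats all 3 genes were higher on whole egg. Dbp ranged from 14.7 to 85.8 CPM (median 25.4) in the 6 casein rats and from 60.5 to 210 CPM (median 163) in the 6 whole egg rats. The groups overlapped in 3 rats: whole egg rat 7 (60.5 CPM) lay below casein rats 9 (64.0 CPM) and 24 (85.8 CPM), and the 5 other whole egg rats lay above every casein rat. The difference was 1.97 on the log2 scale with an SE of 0.34, a 3.91-fold increase, and its adjusted p was 0.000573 in edgeR's quasi-likelihood test. Per2 ranged from 5.35 to 34.3 CPM (median 13.4) in casein rats and from 24.1 to 57.5 CPM (median 42.0) in whole egg rats. Casein rats 5 and 24 reached into the whole egg range, whose lowest value came from rat 18. Per2 differed by 1.21 on the log2 scale with an SE of 0.33, a 2.31-fold increase (edgeR, adjusted p = 0.0426). Per3 ranged from 2.38 to 22.5 CPM (median 8.81) in casein rats and from 14.2 to 41.2 CPM (median 26.9) in whole egg rats. Here casein rat 24 lay above whole egg rats 18 and 22, and the difference was 1.47 on the log2 scale with an SE of 0.39, a 2.77-fold increase (edgeR, adjusted p = 0.0309). Thus 3 of 3 members passed upward, where 1.65% of the 9722 genes tested did. The study named the 3 genes for their change in these same libraries, so this count is not independent evidence of a direction.

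**Figure D1:**
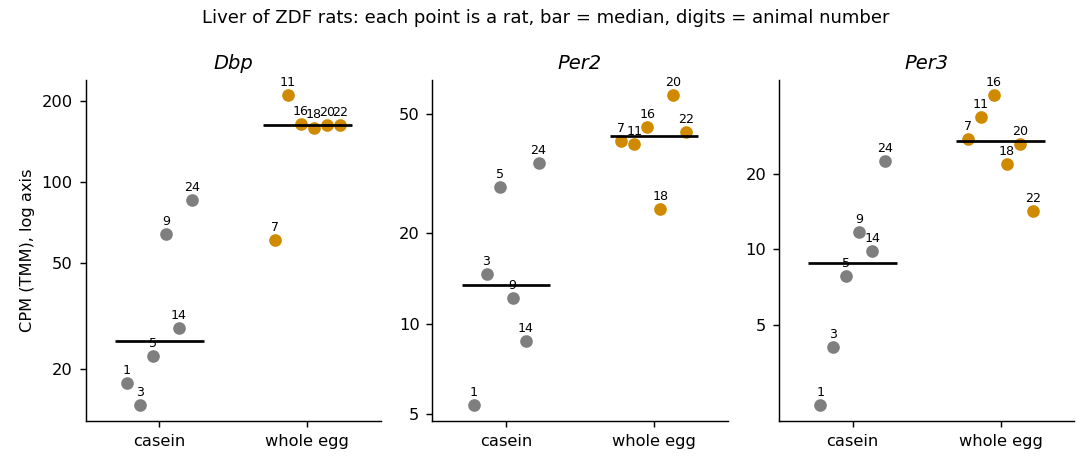
CPM (log axis) of Dbp, Per2 and Per3 in the liver of 6 casein and 6 whole egg ZDF rats, with 1 point per rat, its animal number above it and a bar at the median. In all 3 panels the whole egg median lies above the casein median (163 against 25.4 CPM for Dbp), and casein rat 24 lies above the lowest whole egg rat.

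The call of Dbp was kept whichever rat was left out, and those of Per2 and Per3 were not. Leaving out each rat in turn kept Dbp below an adjusted p of 0.05 in 12 of 12 fits (at most 0.0029 in edgeR). Per2 stayed below it in 3 of 12 fits (adjusted p 0.0119 to 0.125, lost without rat 1, 3, 7, 9, 11, 14, 16, 20 or 22) and Per3 in 4 of 12 (0.00405 to 0.107, lost without rat 1, 3, 5, 7, 9, 11, 16 or 20), with differences between 1.03 and 1.90 on the log2 scale. The animal numbers were unequal between the diets: the casein rats of this genotype have a median number of 7 (1 to 24) and the whole egg rats of 17 (7 to 22). With the number as a term, chosen after the data were seen, the differences were 1.62 for Dbp (SE 0.30, adjusted p = 0.00176 in edgeR), 1.01 for Per2 (adjusted p = 0.208) and 1.32 for Per3 (adjusted p = 0.0792).

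Of the other clock genes and clock-controlled genes on the lists used, 5 could be paired with an identifier. Clock, which codes for the activator, had 23.6 to 59.5 CPM (median 36.4) on casein and 14.0 to 33.4 CPM (median 17.2) on whole egg in the ZDF liver. Its difference of -0.98 on the log2 scale (SE 0.28) missed the threshold with an adjusted p of 0.0531 in edgeR. The 4 nameable genes of the list of known rhythmic genes or targets of PAR bZIP factors all passed upward. Cyp7a1, the rate-limiting enzyme of bile acid synthesis, had medians of 32.0 CPM and 675 CPM on casein and on whole egg (4.20 on the log2 scale, SE 0.37). Alas1, the first enzyme of heme synthesis, had medians of 146 and 524 CPM (1.83, SE 0.23). Nr1i3, a xenobiotic receptor, had medians of 3.68 and 12.3 CPM (1.85, SE 0.49, adjusted p = 0.0309 in edgeR), and Por, the electron donor of microsomal cytochromes P450, of 297 and 775 CPM (1.23, SE 0.20). In Cyp7a1, Alas1 and Nr1i3 every whole egg rat lay above every casein rat, as in 1.42% of all genes, while the groups of Por overlapped. These symbols come from the study's list of called genes, so 4 of 4 is what that list allows. With the animal number as a term Cyp7a1 (3.72), Alas1 (1.67) and Por (1.00) stayed below an adjusted p of 0.05, and Nr1i3 (1.69, adjusted p = 0.286 in edgeR) did not. The difference of Clock was -0.60 in that fit (adjusted p = 0.458 in edgeR).

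In the other tissues of ZDF rats no member passed the test, although Dbp was higher by value on whole egg in each. In the kidney Dbp ranged from 37.5 to 114 CPM (median 51.6) in casein rats and from 61.6 to 380 CPM (median 110) in whole egg rats. Whole egg rats 18 (380 CPM) and 16 (190 CPM) lay above every casein rat, and the 4 others lay below casein rat 24. The difference was 1.18 on the log2 scale with an SE of 0.39 (p = 0.00546 and adjusted p = 0.92 in limma). In adipose tissue Dbp ranged from 19.5 to 87.2 CPM (median 37.1) in casein rats and from 49.8 to 173 CPM (median 106) in whole egg rats. Casein rat 24 lay above whole egg rats 7 and 18, and the highest value, that of rat 11, stands for 10 in a library of 30819. The difference was 1.31 on the log2 scale (SE 0.46, adjusted p = 0.843 in limma) where the median over all genes was -0.38, and 1.14 without rat 11. In the PFC Dbp ranged from 70.3 to 198 CPM (median 92.6) in casein rats and from 79.9 to 239 CPM (median 169) in whole egg rats, and the groups overlapped widely. The difference there was 0.64 on the log2 scale (SE 0.32, adjusted p = 0.557 in limma) where the median over all genes was 0.37, and 0.43 without rats 3 and 5.

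Per2 and Per3 moved less evenly in these tissues. In the ZDF kidney Per2 had 16.1 to 39.5 CPM on casein against 22.2 to 56.3 CPM on whole egg (0.55 on the log2 scale, SE 0.41). Per3 ran from 10.4 to 26.8 CPM and from 19.9 to 42.1 CPM there (0.61, SE 0.43). In ZDF adipose tissue the medians lay close together, at 15.4 and 17.1 CPM for Per2 and at 10.6 and 11.3 CPM for Per3. The fitted differences there were -0.44 on the log2 scale for Per2 (SE 0.83) and 0.23 for Per3 (SE 0.55). In the ZDF PFC the difference of Per2 was 1.73 on the log2 scale (SE 1.03), and without rats 3 and 5, whose libraries hold no Per2 count, it was -0.04. Per3 was low in the PFC, with medians of 6.18 and 4.98 CPM (-0.46 on the log2 scale, SE 0.50).

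**Figure D2:**
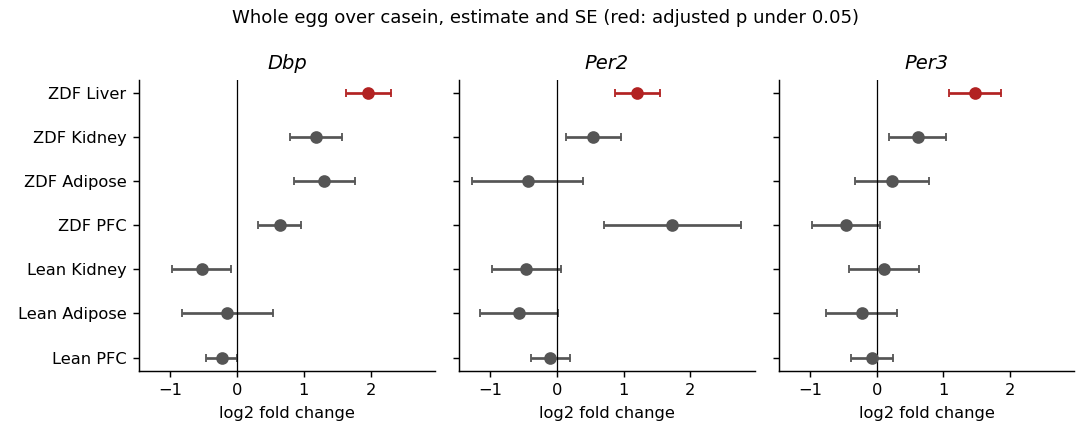
Log2 difference of whole egg minus casein for Dbp, Per2 and Per3 in the 7 tissue and genotype tables, with bars of 1 SE and red for an adjusted p under 0.05 (edgeR in ZDF liver, limma elsewhere). The 4 ZDF estimates of Dbp lie above 0 and the 3 lean ones below 0 (that of lean adipose tissue is above 0 without rats 6 and 13), and the red marks stand in the ZDF liver row.

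In lean rats no member passed either. Dbp in the lean kidney ranged from 55.9 to 182 CPM (median 82.3) in casein rats and from 15.5 to 145 CPM (median 86.9) in whole egg rats, and the difference was -0.53 on the log2 scale (SE 0.44, adjusted p = 0.99 in limma). In lean adipose tissue it ranged from 32.4 to 292 CPM (median 73.3) in casein rats and from 21.5 to 346 CPM (median 48.2) in whole egg rats. The difference of -0.14 (SE 0.68) was 0.40 without rats 6 and 13. In the lean PFC the ranges were 112 to 182 CPM and 58.2 to 210 CPM (-0.23, SE 0.24). For Per2 the lean differences lay between -0.56 and -0.09 on the log2 scale, and for Per3 between -0.22 and 0.12. Over the genes of these 6 tables limma called 1 gene in ZDF adipose tissue (0.0129% of 7772, upward) and 0 genes in the other 5, where 262 to 612 genes had an unadjusted p under 0.05. DESeq2 called 8 genes upward and 10 downward in ZDF adipose tissue, 1 and 57 in the ZDF PFC, 13 and 1 in lean adipose tissue, 1 in each kidney table and 0 in the lean PFC. On the same values edgeR called 2 genes in ZDF adipose tissue and 0 elsewhere, and neither tool called a member.

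Whether diet acted differently in ZDF and in lean rats was tested as an interaction over the 24 rats of a tissue. For Dbp the diet difference was larger in ZDF than in lean rats by 1.71 on the log2 scale in the kidney (SE 0.62, p = 0.00967 and adjusted p = 0.979 in limma), by 1.37 in adipose tissue (SE 0.87) and by 0.85 in the PFC (SE 0.42). No interaction of a member passed, and limma called 0 genes for it in each tissue (276, 289 and 842 genes at an unadjusted p under 0.05 in kidney, adipose tissue and PFC). For Per2 and Per3 the interactions lay between -0.41 and 1.81 with SEs of 0.55 to 1.12. The median animal number was 7 on casein and 17 on whole egg in ZDF rats, and 13.5 and 11.5 in lean rats. Diet was also fitted with the number as a term, chosen after the data were seen. The difference of Dbp was then 0.85 in kidney, 0.93 in adipose tissue and 0.40 in PFC of ZDF rats. In lean rats it was -0.30, 0.18 and -0.19 in the same order. The interaction was not tested with the number as a term. The genotype terms lay between -0.36 and 0.24 for the 3 genes and passed in none. Over all genes the genotype passed in adipose tissue for 0.189% upward and 0.027% downward, and in kidney and PFC for 0 genes (227 and 190 at an unadjusted p under 0.05). With the strain given with the samples in place of the headers, the interaction of Dbp in the kidney was -0.56 and its genotype term was -1.10 (adjusted p = 0.362 in limma). Those groups are rats 1 to 12 and rats 13 to 24, so they cannot be told apart from low and high animal numbers.

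Between genotypes on casein, the liver libraries of 5 lean and 6 ZDF rats gave no called member. Dbp had 20.5 to 53.1 CPM (median 31.9) in lean and 15.4 to 89.2 CPM (median 25.8) in ZDF rats, a difference of -0.13 on the log2 scale (SE 0.42, adjusted p = 0.982 in limma). Per2 had 1.53 to 20.0 CPM in lean and 5.72 to 35.5 CPM in ZDF rats (0.89, SE 0.56), and Per3 had 3.12 to 16.8 CPM and 2.54 to 23.1 CPM (0.06, SE 0.55). The ZDF libraries are the casein libraries of the diet comparison above, here in scaled form. Over all 8100 genes limma called 1 gene, 0.0123%, upward in ZDF.

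Tissues were compared within ZDF rats as a share of each tissue's reads, averaged over the diets. Dbp had medians of 105 CPM in liver, 106 CPM in kidney, 110 CPM in PFC and 39.0 CPM in adipose tissue (12 rats each). It was lower in adipose tissue than in liver by 0.93 on the log2 scale (SE 0.30), than in kidney by 0.90 (SE 0.30) and than in PFC (-1.13, SE 0.30, adjusted p = 0.00154 in limma). The other differences of Dbp were 0.03, -0.20 and -0.23 and did not pass. Per2 had medians of 43.8 CPM in liver, 28.4 CPM in kidney, 16.7 CPM in PFC and 12.7 CPM in adipose tissue. Liver and kidney passed against adipose tissue and PFC by 1.25 to 1.51, while liver and kidney (0.18, SE 0.49) and adipose tissue and PFC (0.08, SE 0.49) did not differ beyond their spread. Without the 4 shallow libraries liver stood 0.74 above PFC for Per2, and the call of kidney over PFC was lost (0.59, adjusted p = 0.0922 in limma), as it was with DESeq2 and edgeR. Per3 had medians of 25.03 CPM in liver, 23.1 CPM in kidney, 8.59 CPM in adipose tissue and 4.41 CPM in PFC. Its differences passed in 5 of 6 pairs, all but liver and kidney (-0.15, SE 0.32), and reached 1.93 for kidney over PFC (SE 0.32). The step from adipose tissue to PFC (0.76, adjusted p = 0.0454) was lost with the rat as a block (adjusted p = 0.0589 in limma) and with RLE factors. Tissue differences that passed were common among all genes. The shares below are for a single direction each, and none is given for liver against kidney. Among all 5666 genes, 27.1% passed as higher in liver than in adipose tissue, 29.7% in liver than in PFC, 23% in kidney than in adipose tissue, 25% in kidney than in PFC and 25.3% in adipose tissue than in PFC, with 26.4% lower in adipose tissue than in PFC.

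**Figure D3:**
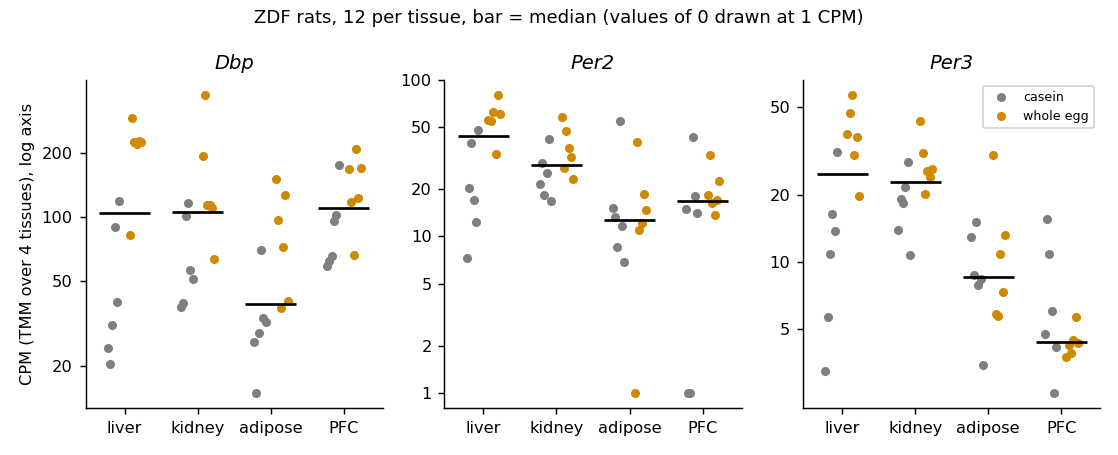
CPM (log axis, TMM over the 4 tissues) of Dbp, Per2 and Per3 in ZDF rats, 1 point per rat, grey for casein and orange for whole egg, with a bar at the median of 12 rats and values of 0 drawn at 1 CPM. Adipose tissue lies lowest for Dbp (39.0 CPM) and PFC lowest for Per3 (4.41 CPM), and in the liver the whole egg points lie in the upper part for all 3 genes.

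Whether the 3 genes were high and low in the same rats was asked within tissues, after the mean of each genotype and diet group was taken off, over 12 ZDF rats in liver and 24 rats elsewhere. Tests permuted rats within groups and were adjusted over the 12 relations, and none passed. In the liver Dbp and Per3 had a Pearson r of 0.68 (rho 0.69, p = 0.0403, adjusted p = 0.161 by permutation), Per2 and Per3 of 0.58 (rho 0.34, adjusted p = 0.363 by permutation) and Dbp and Per2 of 0.35 (rho 0.29, adjusted p = 0.591 by permutation). Without the 2 rats farthest out on the first gene, these r were 0.68, -0.07 and 0.02, so the relations of Per2 rest on those rats (rats 1 and 24 against Per3, rats 7 and 24 against Dbp). In kidney the r of the 3 pairs lay between 0.12 and 0.15, and in adipose tissue between -0.29 and 0.16. In the PFC Per2 and Per3 had an r of -0.63 (rho -0.51, adjusted p = 0.161 by permutation), which came to 0.04 without rats 3 and 5. Dbp and Per3 there had an r of -0.49 (rho -0.52, p = 0.0224, adjusted p = 0.161 by permutation), -0.54 without rats 20 and 24 and -0.40 without rats 3 and 5. The column total of the PFC libraries had an r of -0.63 with Per3 and of 0.39 with Dbp. Its part in the relation of Dbp and Per3 was not tested.

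Clock, added after the data were seen, ran against Dbp by value in the 3 tissues outside the brain: r was -0.79 in liver (rho -0.69), -0.57 in kidney (rho -0.61) and -0.51 in adipose tissue (rho -0.38). The adjusted p over 12 relations by permutation were 0.0546, 0.0546 and 0.0548. These lie close to the threshold and crossed it with the scaling: with a prior count of 0.5 all 3 had an adjusted p of 0.0454 by permutation. Without TMM factors r was -0.87 in liver (adjusted p = 0.00684 by permutation), -0.34 in kidney and -0.46 in adipose tissue, and only the liver relation passed. Without the shallow libraries the adjusted p were 0.0805 to 0.106 by permutation. With the animal number also taken off, r was -0.47 in liver (adjusted p = 0.301 by permutation), -0.50 in kidney and -0.51 in adipose tissue, and none passed. By rank the kidney relation had an adjusted p of 0.0356 by permutation, and without the 2 rats farthest out on Dbp the r were -0.54, -0.59 and -0.28. In the PFC r was 0.16.

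The same gene was then compared between tissues of a rat, in 18 relations. Dbp had a positive r in all 6 tissue pairs, from 0.32 to 0.74. That of liver and adipose tissue passed (r = 0.74, rho 0.83, p = 0.00039, adjusted p = 0.00702 by permutation, 12 rats), but r was 0.45 without rats 7 and 24, and the adjusted p was 0.0652 without the shallow libraries. The relations of liver and PFC (r = 0.62, rho 0.61) and of kidney and adipose tissue (r = 0.47, rho 0.45, 24 rats) each had an adjusted p of 0.344 by permutation. Among ZDF casein rats, rat 24 had the highest Dbp in all 4 tissues (85.8, 114, 87.2 and 198 CPM). Among lean casein rats, rat 23 was highest in kidney and adipose tissue (182 and 292 CPM), and among lean whole egg rats rat 17 was (145 and 346 CPM), while neither led in the PFC. Per2 had r between -0.42 and 0.22 and Per3 between -0.36 and 0.39, and none of their 12 relations passed.

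**Figure D4:**
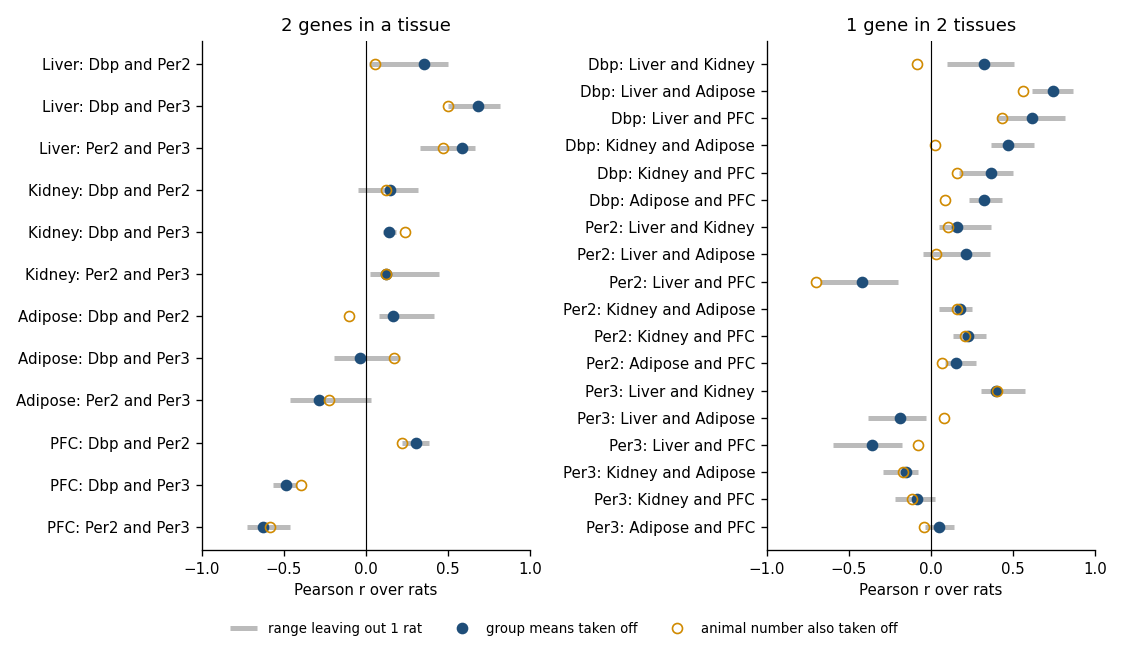
Pearson r over rats between 2 of the genes in a tissue (left, 12 relations) and of a gene between 2 tissues (right, 18 relations): filled points after the group means were taken off, grey bars the range when each rat is left out, open points with the animal number also taken off. The 6 relations of Dbp between tissues lie at 0.32 to 0.74 when filled, and the open points of 5 of them lie at 0.43 or below.

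Dbp moved with the number that the labels give each rat, 1 to 24 over the whole study. What the order of these numbers stands for is not given in the sources used here, and the relation was noticed in these data before it was computed. With the group means taken off, Dbp had an r with the animal number of 0.67 in kidney (rho 0.73, p = 0.00055, adjusted p = 0.0044 by permutation over 16 relations, 24 rats) and of 0.68 in adipose tissue (rho 0.71, adjusted p = 0.0044 by permutation, 24 rats). Within each of the 4 groups of 6 rats the r was positive, 0.34 to 0.91 in kidney and 0.25 to 0.89 in adipose tissue. Without rats 2 and 24, among the farthest out on the number once group means were taken off, r was 0.56 and 0.63. Without rats 6 and 13 it was 0.75 in adipose tissue. In the lean kidney rats 2, 4 and 6 had 15.5, 55.9 and 29.3 CPM, and rats 19, 21 and 23 had 91.6, 105 and 182 CPM. In lean adipose tissue the same rats had 28.6, 32.4 and 48.7 CPM against 72.4, 230 and 292 CPM, with rat 13 lowest of all at 21.5 CPM. In the ZDF liver r was 0.75 (rho 0.60, adjusted p = 0.0513 by permutation, 12 rats), and 0.35 without rats 7 and 24. The 5 lean rats of the casein liver, which that value does not use, had 29.1, 20.5, 31.9, 53.1 and 51.9 CPM in the order of their numbers 4, 8, 12, 15 and 19. In the PFC r was 0.39 (rho 0.32, adjusted p = 0.249 by permutation), and 0.02 without rats 2 and 24.

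Fitted over all genes with the group and the number as terms, Dbp rose by value per 10 animal numbers by 0.82 on the log2 scale in kidney (SE 0.20), 1.08 in adipose tissue (SE 0.27) and 0.81 in ZDF liver (SE 0.20). Ordered by p-value over all genes of a fit, it stood at place 7 of 6797 in kidney, place 4 of 7395 in adipose tissue and place 8 of 9722 in liver. These slopes did not pass over all genes (adjusted p = 0.14 and 0.538 in limma for kidney and adipose tissue, 0.593 in edgeR for liver). In the same fits 0.0206% of genes passed upward in the ZDF liver by edgeR and 0% in kidney and adipose tissue by limma, with 555 and 569 genes at an unadjusted p under 0.05. In lean rats alone the slope of Dbp was 1.13 in kidney (SE 0.25, place 6 of 7607) and 1.60 in adipose tissue (SE 0.38, place 35 of 8788). In ZDF rats alone it was 0.53 (SE 0.28, place 488 of 7501) and 0.59 (SE 0.32, place 169 of 7772). In the PFC of all 24 rats it was 0.29 (SE 0.15, place 278 of 8289). None of these passed, and whether the genotypes differ in slope was not tested. The column total moved with the number by an r of 0.37 in kidney, 0.24 in adipose tissue and -0.05 in liver, and Dbp with the column total by 0.14, -0.03 and 0.03. In the PFC these r were 0.38 and 0.39. Per2 and Per3 had no relation with the number that passed (r between -0.38 and 0.54 over the 4 tissues). Clock had an r of -0.81 with the number in the ZDF liver (rho -0.83, adjusted p = 0.0125 by permutation, 12 rats), -0.65 without rats 7 and 24, and of -0.33 and -0.22 in kidney and adipose tissue. With the number also taken off, the r of Dbp was 0.56 between liver and adipose tissue (adjusted p = 0.581 by permutation), 0.03 between kidney and adipose tissue and -0.08 between liver and kidney. What else differed along the number was not tested.

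**Figure D5:**
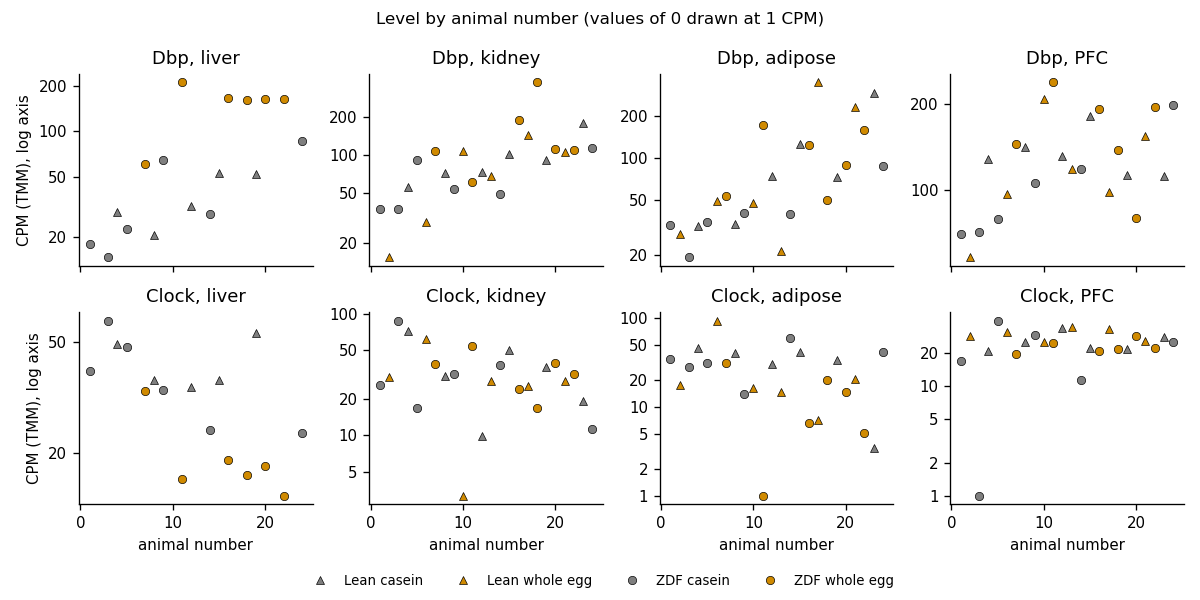
CPM (log axis) of Dbp (top) and Clock (bottom) against the animal number in liver, kidney, adipose tissue and PFC, circles for ZDF and triangles for lean rats, grey for casein and orange for whole egg, values of 0 drawn at 1 CPM (lean liver from the casein table). In kidney and adipose tissue Dbp lies higher at high numbers (r = 0.67 and 0.68 over both genotypes), by value with the smaller slope in ZDF rats. The ZDF casein rats have a median number of 7 but span 1 to 24.

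The genes whose group-centred levels were most like each member over 84 libraries were looked up among 5345 other genes present in all 7 diet tables. For Dbp, Por stood at rank 3 (r = 0.50 over all, 0.68 in liver, 0.71 in adipose tissue, 0.13 in kidney and 0.37 in PFC), behind a pair of genes known only by identifier, the first being ENSRNOG00000020607 (r = 0.57). Without the 4 shallow libraries Por stood at rank 10 (r = 0.52), and Clock at rank 5333 (r = -0.51), close to the lower end. Alas1, the other gene of the list that holds Por to be found in all 7 tables, went the other way. It stood at rank 3837 for Dbp (r = -0.13), and at rank 3780 without the shallow libraries (r = -0.13). For Per2 the highest r were 0.69 to 0.73, among them that of Ugp2, an enzyme of glycogen synthesis (r = 0.72 over all, 0.92 in PFC and -0.33 in kidney). Without the shallow libraries the highest r for Per2 was 0.54. For Per3 the highest r was 0.41 over all libraries. Per2 stood at rank 582 and Per3 at rank 1624 for Dbp (r = 0.19 and 0.06), and at ranks 447 and 1991 without the shallow libraries (r = 0.30 and 0.07). For Per2, Dbp moved from rank 2747 to rank 108 when the shallow libraries were left out, and Per3 from rank 4997 (r = -0.20) to rank 663 (r = 0.16).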

How the data were processed

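The authors mapped the QuantSeq reads of each library to build RNO_6.0 with STAR, whose own option gave the gene counts on Ensembl models. The deposited values of the ZDF liver are raw counts. The deposited values of the 7 other tables are used as a score, a scaled and rounded count: whole numbers are missing or doubled at regular steps, and 7 libraries that stand in both liver tables differ by a constant factor (0.90 to 1.17) that the steps also give. TMM factors and log2 CPM (prior count 2) were computed in edgeR 4.0.16 (R 4.3.3). Diet was tested with edgeR's quasi-likelihood test in the ZDF liver and, since a count model does not suit scaled values, with limma 3.58.1 (trend) elsewhere, where edgeR had been planned. Tests were two-sided and adjusted by Benjamini-Hochberg over all genes of a fit (and over the tissue pairs) at an FDR of 5%. Rats are the replicates.

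Correlations had 100000 permutations within groups, two-sided (numpy 2.4.6, scipy 1.17.1, Python 3.11.15). Alternatives were DESeq2 1.42.0, RLE factors, a minimum count of 10, quality weights, an FDR of 10%, another prior count, leaving out each rat, the samples' strain and a rat block. Tests on recovered reads, with edgeR on scaled values, with the animal number, and without the shallow libraries or rats 6 and 13, and the relations with Clock and the number, were chosen after the data were seen. Genes named are the 3 members, the nameable genes of the clock lists and, by rule, genes among the 5 most like a member with a mean count of at least 10. The members and lists were chosen with earlier results of these data known. Symbols come from the study's list of called genes, which pairs 550 of 12563 identifiers, and other clock genes were not analysed here. Tissue libraries of one number come from the same rat, as the labels give it, and their deviations correlated with a median r of -0.01 to 0.03 per tissue pair. The column of lean rat 8 among the ZDF livers was dropped. The authors' comparison tables (fold changes and p-values) and the microRNA tables were not used. Figures came from matplotlib 3.10.9. Fits and correlations were tested on simulated data. The counts simulated for the fits were not scaled and rounded, so they do not check the limma fits on scaled values.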

Additional observations from a re-analysis of the deposited data

Results flagged for a closer look

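In 10 of 45 groups of 5 or 6 rats a member's highest or lowest rat stood apart from the rest by Dixon's ratio, where chance alone marks about 1 in 20 groups of normally distributed values. The ratio was taken on CPM. On log2 CPM, a scale added after the data were seen, 4 of the 45 groups were marked. Of the 10 marked on CPM, 3 still stood apart there (rat 7 for Dbp in liver, and rats 15 for Per2 and 8 for Per3 in lean PFC). Those marked on CPM for Dbp were rat 23 of the lean casein group in adipose tissue (292 CPM, next 125) and in kidney (182 CPM, next 102). The others for Dbp were rat 24 of the ZDF casein group in adipose tissue (87.2 CPM, next 40.4) and rat 7 of the ZDF whole egg group in liver (60.5 CPM, next 159.5). For Per2 they were rat 15 of the lean casein group in adipose tissue (68.2 CPM, next 20.5) and in PFC (32.0 CPM, next 15.2), and rat 24 of the ZDF casein group in adipose tissue (67.5 CPM, next 19.3). For Per3 they were rat 8 of the lean casein group in PFC (2.01 CPM, next 5.26), rat 11 of the ZDF whole egg group in adipose tissue (34.6 CPM, a value of 2 in a library of 30819) and rat 7 of the ZDF whole egg group in PFC (6.71 CPM, next 5.11).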

How the results depend on the processing

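Of the 99 values for the 3 genes, 16 passed at an FDR of 5%, none of these 16 changed its sign under any alternative tried, and no other value passed under one. In the ZDF liver the call of Dbp was kept in 20 of 20 alternatives, that of Per2 in 9 and that of Per3 in 11. All values here are on the log2 scale, or r for relations, and the cause of each change was not tested.

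Calls were lost for Per2 in the ZDF liver with a minimum count of 10 (1.17) and, with the animal number as a term, for Per2 (1.01) and Per3 (1.32). They were lost for Per2 of kidney over PFC with DESeq2 (0.71), edgeR (0.64) and without the 4 shallow libraries (0.59), and for Per3 of adipose tissue over PFC with RLE factors (0.73). The replicate block of the rat ended the call of Per3 of adipose tissue over PFC (0.76) and changed no other. The relation of Dbp between liver and adipose tissue lost its call with the number taken off (0.56), without TMM factors (0.73) and without the shallow libraries (0.73).

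Signs turned in values that had not passed. For the diet effect, Dbp in lean adipose tissue became 0.20 (DESeq2 with either scaling, edgeR on scaled values and on recovered reads), 0.18 (number as a term) and 0.40 (without rats 6 and 13). Per3 in lean kidney became -0.23 and -0.24 (DESeq2 with TMM or its own factors), -0.22 (edgeR), -0.20 (recovered reads) and -0.32 (quality weights). Per2 in the lean PFC became 0.11 (quality weights). In ZDF adipose tissue Per2 became 0.10 (quality weights), 0.019 (recovered reads) and 0.30 (without rat 11), and Per3 became -0.031 (DESeq2), -0.028 (recovered reads) and -0.041 (without rat 11). In the ZDF PFC Per2 became -0.0034 (DESeq2) and -0.045 (without rats 3 and 5), and Per3 became 0.053 (without rats 3 and 5). With DESeq2 and edgeR in turn, Dbp by genotype in the casein liver became 0.10 and 0.11, the genotype terms in kidney -0.0029 and -0.0087 (Dbp) and -0.0037 and -0.014 (Per3), and those in the PFC 0.077 and 0.051 (Dbp), 0.54 and 0.53 (Per2) and -0.051 and -0.057 (Per3). The diet term of Per2 in the PFC became -0.092 and -0.065, and RLE factors turned the genotype term of Dbp there (0.019). With the strain of the samples, the casein liver gave -0.89 (Per2) and -0.79 (Per3), the kidney genotype terms were -1.10 (Dbp), -0.16 (Per2) and -0.18 (Per3), its interactions -0.56 (Dbp) and -0.14 (Per2), the adipose genotype terms -1.002 (Per2) and 0.14 (Per3), its interactions -0.84 (Per2) and -0.13 (Per3), and its diet term 0.0196 (Per3). Between tissues, Per2 of adipose tissue over PFC became -0.13 (DESeq2 and edgeR) and -0.33 (without the shallow libraries), and Dbp of liver over kidney became -0.0398 (DESeq2) and -0.072 (RLE factors).

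Among relations, with the number taken off the r in adipose tissue became -0.11 (Dbp and Per2) and 0.17 (Dbp and Per3), and that between tissues -0.083 (Dbp, liver and kidney), -0.043 (Per3, adipose tissue and PFC) and 0.0797 (Per3, liver and adipose tissue). Without TMM factors they became 0.20 (Dbp and Per3 in adipose tissue), -0.17 (Per2, liver and kidney) and -0.044 (Per3, adipose tissue and PFC). Without the shallow libraries they became 0.031 and 0.042 (Per2 and Per3 in adipose tissue and in PFC), -0.018 (Per2, adipose tissue and PFC) and -0.12 (Per3, adipose tissue and PFC).

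Leaving out each rat in turn gave 1.03 to 1.49 (Per2) and 1.27 to 1.90 (Per3) in the ZDF liver, with calls lost as reported. Ranges that crossed 0, all for values that had not passed, were these. For diet they were -0.60 to 0.24 (Dbp) and -0.53 to 0.012 (Per3) in lean adipose tissue, -0.34 to 0.34 (Per3) in lean kidney, -0.20 to 0.12 (Per2) and -0.32 to 0.0301 (Per3) in lean PFC, and -0.83 to 0.30 (Per2) and -0.041 to 0.36 (Per3) in ZDF adipose tissue. For genotype in the casein liver they were -0.41 to 0.077 (Dbp) and -0.22 to 0.34 (Per3). For the terms over 24 rats they were -0.15 to 0.11 (Per3, diet), -0.052 to 0.48 (Per2, genotype), -0.24 to 0.024 (Per3, genotype) and -0.35 to 0.80 (Per2, interaction) in adipose tissue, -0.11 to 0.24 (Per2, diet), -0.18 to 0.18 (Dbp, genotype) and -0.10 to 0.25 (Per3, genotype) in kidney, and -0.15 to 0.031 (Dbp, genotype) and -0.54 to 0.054 (Per2, genotype) in PFC. For r they were -0.19 to 0.21 (Dbp and Per3) and -0.46 to 0.031 (Per2 and Per3) in adipose tissue, -0.051 to 0.31 (Dbp and Per2) in kidney, -0.045 to 0.36 (Per2, liver and adipose tissue), -0.034 to 0.14 (Per3, adipose tissue and PFC) and -0.22 to 0.024 (Per3, kidney and PFC).

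Over all genes of the ZDF liver, 160 passed upward and 125 downward, and 89 and 70 with the number as a term. Quality weights gave 25 and 28 in ZDF adipose tissue and 3 and 1 in lean kidney. In the scaled tables the depth of a library is known only through its steps, and a member's value of 0 to 11 in the shallow libraries limits the precision there.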
